A study of Mus musculus with 12 samples.

Results

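Lacrimal glands labelled ESS were compared with lacrimal glands of NOD mice aged 8 weeks by RNA sequencing. The comparison takes 6 of the 12 libraries of the series, 3 of each group, and every gene that reached at least 1 FPKM in at least 3 of those 6 libraries, which 9823 of the 11736 listed genes did. FPKM is a level scaled to gene length and to the fragments of the library. The lacrimal gland is the exocrine gland near the eye whose acinar cells release water, ions and proteins into the tear film when nerves stimulate them, and whose ducts carry that fluid away. In the mouse its proteins include many secretoglobins, odorant-binding lipocalins and exocrine-gland-secreted peptides (ESP), families known for carrying pheromones or acting as them. Sjögren's syndrome is an autoimmune disease in which lymphocytes gather in tear and salivary glands, and NOD mice, an inbred line prone to autoimmune diabetes, develop inflamed tear glands without an added agent.

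The ESS group holds 3 libraries of lacrimal gland that carry only that name, and the series text has a group called LGSS in its place, taken here as the same group. The NOD group holds 3 lacrimal gland libraries of NOD mice at 8 weeks of age. The other 6 libraries, 3 of NOD glands at 12 weeks and 3 of control glands, are given here as levels beside the comparison, and they share in its estimate of the spread. Strain, age, genotype and treatment of the ESS and control mice, the sex of all the mice and the hour of collection are missing from the labels used here, and so is whether each library came from its own animal. Strain, sex, age, hour and handling therefore cannot be told apart from the group, and p-values measure only the spread between these samples, which may be technical. Fewer cells of a type and less RNA per cell cannot be told apart in whole tissue.

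The listed FPKM of a library summed to between 624257 and 699332 in ESS glands and between 709988 and 813763 in NOD glands at 8 weeks. Its 20 most abundant genes held 63.8% to 71.4% of that sum in ESS glands and 69.8% to 75.9% in NOD glands. Absolute depth is unknown, and the depth relative to the mean of all libraries, read from the spacing of low values, ran between 0.790 and 1.13. Defining genes of the lacrimal gland were present in every library: the water channel gene Aqp5 had 195, 209 and 187 FPKM in ESS glands and 161, 163 and 171 FPKM in NOD glands, and the odorant-binding lipocalin Lcn11 had 4223, 5471 and 6217 FPKM in ESS glands and 5976, 6821 and 6360.4 FPKM in NOD glands. ESS libraries 1 and 2 stand apart in genes of salivary glands: summed FPKM of 9 of the 10 listed salivary markers was 14467, 9519 and 40.3 in ESS libraries 1, 2 and 3 and 12.9, 31.3 and 17.1 in NOD libraries. The other, Mucl2, is abundant in every library and was left out of that sum. With it the sums were 60456, 69564 and 62668 in ESS libraries and 48844, 39840 and 63265 in NOD libraries, and library 3 did not stand apart. Results that ESS libraries 1 and 2 touch are therefore also given without them, which leaves ESS library 3 alone, assumed to vary as the other groups do.

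In ESS glands 1118 genes were higher and 392 were lower than in NOD glands at 8 weeks, which is 11.4% and 3.99% of the genes tested, or 15.4% in either direction (limma, adjusted p under 0.05). The median change of all tested genes was 0.086 on the log2(FPKM + 1) scale, the scale of all log2 changes given here, and most single-gene changes were modest: 223 genes rose and 123 fell by 1 log2 unit or more. Groups of 3 did not overlap for 3246 genes, 33% of those tested, and for 1501 of the 1510 called genes. Of the called genes, 143 could pass the filter on low values through ESS libraries alone and 68 through NOD libraries alone. For 1112 of the 1118 genes called higher, the mean of control glands also lay above that of NOD glands at 8 weeks. Both comparisons use the same NOD libraries, and genes called higher were picked for low values there. That favours a control mean above them in advance, and the share among all tested genes was not computed.

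The balance between rises and falls depended on how libraries were scaled. With library medians centred 778 genes were higher and 722 lower, with quantile normalization 814 and 748, and with libraries rescaled without their 29 most abundant genes 818 and 634, against 74.0% higher as deposited. Those scalings moved the median of all genes to -0.010, -0.011 and 0.0057. All 392 genes that fell, and 778 of the 1118 that rose, were called in the same direction after centring. List medians of modest size are therefore also given below relative to the median of all genes, 0.086. Leaving out ESS library 1 gave 558 genes higher and 328 lower, ESS library 2 gave 707 and 295, and ESS library 3 gave 717 and 288. Leaving out NOD library 1 gave 835 and 212, NOD library 2 gave 881 and 218, and NOD library 3 gave 842 and 420. With ESS library 3 alone, 225 were higher and 192 lower.

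**Figure D1:**
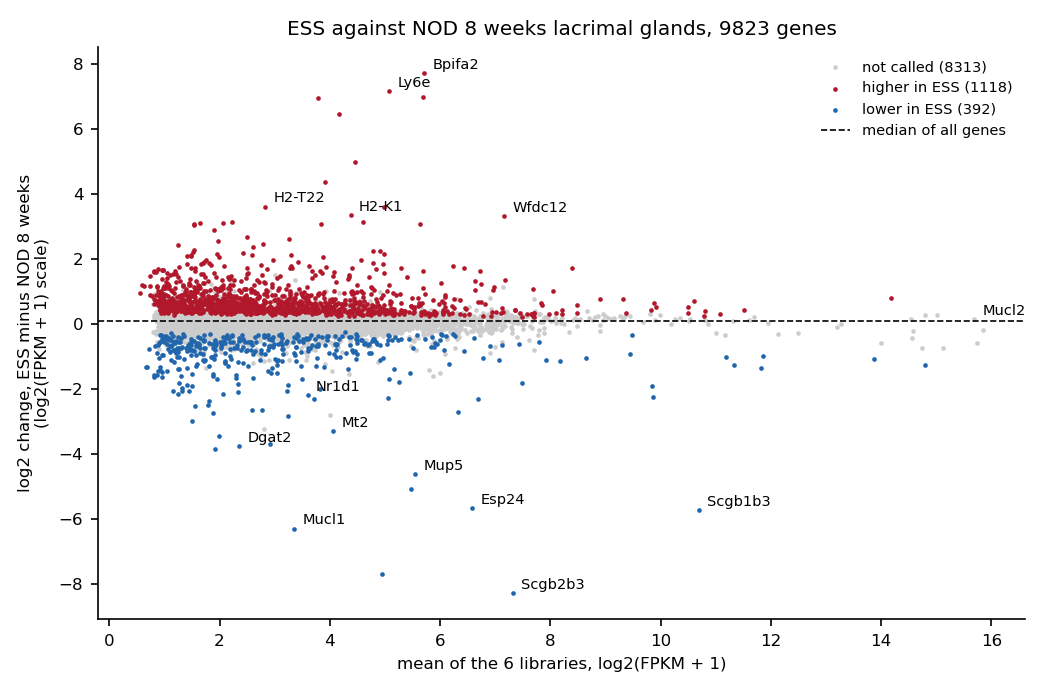
Each point is one of the 9823 tested genes, with the mean of log2(FPKM + 1) over the 6 libraries across and its log2(FPKM + 1) change, ESS minus NOD at 8 weeks, upward; coloured points are the 1118 genes called higher and the 392 called lower. The largest changes, among them Ly6e and Scgb2b3, lie far outside the cloud of genes whose changes sit around the median of 0.086.

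The plot of change against level shows that the largest changes reached genes of very different abundance. The 12 largest rises and 12 largest falls were taken among called genes whose groups did not overlap. Their adjusted p under 0.05 and the separation of their groups were thus set by that choice. Of the named rises, the largest that all 3 ESS libraries shared was that of Ly6e, which encodes a small GPI-anchored protein of the cell surface known as interferon-inducible and lies on chromosome 15 at 74955051 to 74959905 (GRCm38). Ly6e had 428, 403 and 379 FPKM in ESS glands and 3.46, 1.26 and 1.22 FPKM in NOD glands. The ESS values lay together, far above every NOD value, 204-fold on the means, with a log2 change of 7.16 ± 0.29 (SE, adjusted p = 1.84e-08), and with ESS library 3 alone the adjusted p was 1.63e-05. NOD glands at 12 weeks averaged 5.07 FPKM and control glands 373 FPKM.

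Wfdc12, which encodes a whey-acidic-protein-type protease inhibitor of secretions (chromosome 2 at 164189231 to 164190608), had 451, 427 and 479.9 FPKM in ESS glands and 44.9, 41.9 and 45.4 FPKM in NOD glands. The libraries of a group differed little, and the rise was 10.3-fold with a log2 change of 3.33 ± 0.27 (SE, adjusted p = 5.91e-06). H2-T22, a non-classical class I gene of the H2 complex (chromosome 17 at 36037128 to 36042747), had 25.7, 23 and 22.7 FPKM in ESS glands and 0.892, 1.55 and 0.736 FPKM in NOD glands. It rose 22.5-fold (log2 change 3.61 ± 0.14, adjusted p = 1.84e-08), and H2-K1, Rpl29 and Rpl34, described with their groups below, were also among the 12 largest rises. Agt, the precursor of angiotensin, had 27, 18.6 and 3.88 FPKM in ESS glands and 0.819, 0.576 and 0.376 FPKM in NOD glands. Its ESS values differed severalfold among themselves, lowest in library 3, and the log2 change was 3.14 ± 0.73 (adjusted p = 0.0127). Agt passed the filter through ESS libraries alone, and was not tested when any ESS library was left out. The other 5 of the 12 largest rises, Bpifa2, Smr3a, Chia1, Amy1 and Crisp1, are led by ESS libraries 1 and 2 and are taken up at the end.

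The largest named fall was that of Scgb2b3, a secretoglobin gene on chromosome 7 at 31359038 to 31362072, with 5.18, 8.44 and 11.9 FPKM in ESS glands and 3314, 3310.0 and 2023 FPKM in NOD glands. Every ESS value lay far below the lowest NOD value (log2 change -8.27 ± 0.45, adjusted p = 2.17e-07). Mucl1, which encodes a small mucin-like secreted protein (chromosome 15 at 103751919 to 103755469), had 0.313, 0.187 and 0 FPKM in ESS glands and 100.3, 78.3 and 92 FPKM in NOD glands. It was close to or at 0 in every ESS library and passed the filter through NOD libraries alone (log2 change -6.29 ± 0.16, adjusted p = 4.1e-10) and at a mean of 68.7 FPKM in NOD glands at 12 weeks and 0.097 FPKM in control glands.

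Dgat2, which encodes an enzyme of the last step of triglyceride synthesis (chromosome 7 at 99153658 to 99182719), had 0.57, 0.363 and 0.272 FPKM in ESS glands and 17.6, 19 and 16.8 FPKM in NOD glands. Fbp1, which encodes the gluconeogenic enzyme fructose-bisphosphatase (chromosome 13 at 62864753 to 62888282), had 0.365, 0.177 and 0.0824 FPKM in ESS glands and 10.6, 11.8 and 14.1 FPKM in NOD glands. Both were under the filter level in all ESS libraries and well above it in all NOD libraries, with log2 changes of -3.75 ± 0.11 and -3.44 ± 0.16 (adjusted p = 1.34e-09 and 5.55e-08). Tpm3-rs7, a processed relative of a tropomyosin gene, had 1.02, 1.05 and 1.28 FPKM in ESS glands and 27.9, 25.6 and 24.6 FPKM in NOD glands (adjusted p = 4.1e-10). Dgat2, Fbp1, Mucl1 and Tpm3-rs7 averaged 18.1, 13.1, 68.7 and 25.9 FPKM in NOD glands at 12 weeks and 0.33, 0.213, 0.097 and 1.45 FPKM in control glands, so for each the low level was shared by ESS and control libraries and the high level by both NOD ages.

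Mt2, a metallothionein that binds zinc and other metals, had 5.89, 2.93 and 4.48 FPKM in ESS glands and 53.9, 44.8 and 55.7 FPKM in NOD glands (chromosome 8 at 94172664 to 94173568; log2 change -3.30 ± 0.25, adjusted p = 3.15e-06). Mt1, its neighbour gene, had 24.5, 20.7 and 18.7 FPKM in ESS glands and 59.3, 45 and 67.2 FPKM in NOD glands, and fell by 1.37 log2 units (adjusted p = 6.54e-05). No ESS value of either gene reached a NOD value. The other 2 tested of the 5 listed metallothionein and zinc genes did not pass the test, and the count of 2 falls held under every scaling.

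**Figure D2:**
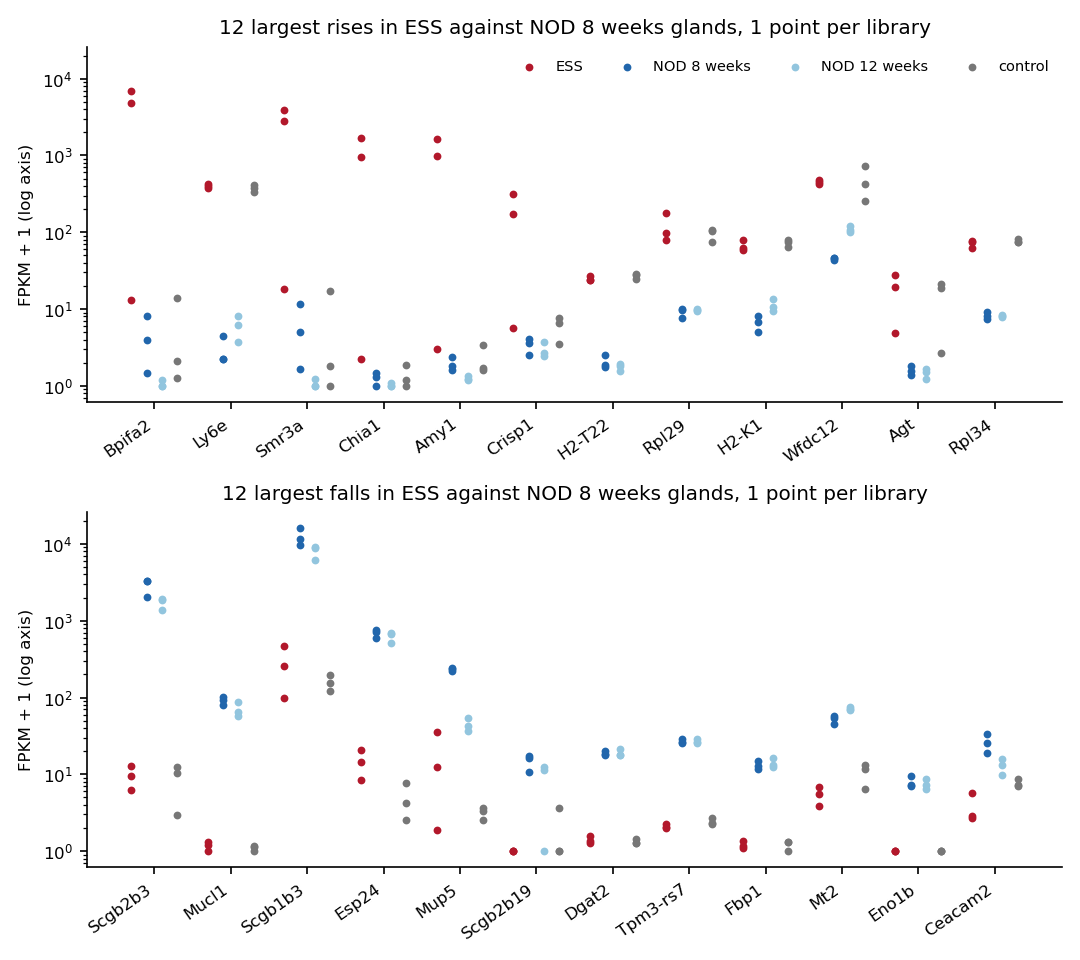
FPKM in each library, on a log axis of FPKM + 1, of the genes with the 12 largest rises and the 12 largest falls; each gene has its ESS libraries on the left, then NOD at 8 weeks, NOD at 12 weeks and control. In Bpifa2, Smr3a, Chia1, Amy1 and Crisp1 the lowest ESS point, library 3, lies next to the NOD points, whereas in Ly6e, H2-K1, Scgb2b3 and Dgat2 the ESS points lie apart from them.

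Secretoglobins, small disulphide-linked secreted proteins whose transcripts are among the most abundant of these glands, held many falls in ESS glands. Of 25 tested members, 12 fell, 2 rose and 11 did not pass the test, beside 3.99% of all genes that fell, with a median log2 change of -0.74 against 0.086 for all genes. Of the 12, Scgb2b19 and Scgb1b10 passed the filter through NOD libraries alone. Their summed share of the listed FPKM was 27.4%, 28.1% and 31.3% in ESS glands and 41.5%, 39.8% and 42.9% in NOD glands. Every ESS share lay below every NOD share (exact permutation test, 2-sided p = 0.1, the smallest that 3 against 3 allows). The falls were far from even across members. Scgb1b3 had 96.8, 257 and 473 FPKM in ESS glands and 15911, 11517 and 9547 FPKM in NOD glands, a log2 change of -5.72 ± 0.44 (adjusted p = 3.88e-06). Scgb2a2 had 523, 456 and 445 FPKM in ESS glands and 1756, 1626 and 1985 FPKM in NOD glands, a log2 change of -1.91 ± 0.13 (adjusted p = 1.53e-06). Neither gene had overlapping groups, and the level in ESS glands was 44.7 times lower for Scgb1b3 and 3.77 times lower for Scgb2a2.

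Among the most abundant secretoglobins, Scgb1b7 had 15366, 16288 and 24061 FPKM in ESS glands and 41817, 48804 and 41329 FPKM in NOD glands (adjusted p = 0.00587). Scgb2b7 had 9162, 9655 and 12332 FPKM in ESS glands and 22824, 23027 and 19451 FPKM in NOD glands (adjusted p = 0.0124). ESS library 3 had the highest ESS value of both, still below every NOD value, and the call of Scgb2b7 was lost without ESS library 1. Scgb1b20, more abundant still, had 23138, 26976 and 34157 FPKM in ESS glands and 46131, 44641 and 48293 FPKM in NOD glands and did not pass the test (adjusted p = 0.0721), although its groups did not overlap. The 2 members that rose, Scgb1b27 and Scgb2b27, were highest in ESS library 1: Scgb1b27 had 119.8, 50.5 and 22.2 FPKM in ESS glands and 16.2, 8.96 and 16.3 FPKM in NOD glands (adjusted p = 0.0165). Scgb2b27 had 68.4, 31.2 and 14.5 FPKM in ESS glands and 11.7, 9.76 and 13.3 FPKM in NOD glands (adjusted p = 0.046). The genes with the highest means, Obp1a, Scgb1b2 and Mucl2, had overlapping groups: the odorant-binding protein gene Obp1a had 50664, 55561 and 61411 FPKM in ESS glands and 62525, 53954 and 73242 FPKM in NOD glands, and the mucin-like gene Mucl2 45989, 60045 and 62628 FPKM in ESS glands and 48831, 39808 and 63248 FPKM in NOD glands (adjusted p = 0.428 and 0.58). Most Scgb1b genes share at least 95% identity with another member over at least 50% of the shorter transcript. The division of reads among them is therefore uncertain, and the summed share is the firmer value. Leaving out single libraries left 8 to 12 falls, 2 rises were found only without ESS library 3, and with ESS library 3 alone 4 fell and none rose.

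The pheromone carriers and peptides held more falls than rises, 10 and 2 among 21 tested members, with a median of -0.31. Among all genes 3.99% fell and 11.4% rose. Esp34, 1 of the 10, passed the filter through NOD libraries alone. Esp24, an exocrine-gland-secreted peptide gene (chromosome 17 at 39038285 to 39040117), had 7.36, 13.4 and 19.5 FPKM in ESS glands and 762, 709 and 593 FPKM in NOD glands. ESS values were all far below NOD values (log2 change -5.67 ± 0.37, adjusted p = 1e-06). Esp23 averaged 46.5 ± 12.4 FPKM in ESS glands and 228 ± 12.6 FPKM in NOD glands, Esp31 2281 ± 309 FPKM in ESS glands and 5870.4 ± 1049.8 FPKM in NOD glands, and Esp3 196 ± 39.2 FPKM in ESS glands and 433 ± 48.4 FPKM in NOD glands (SD, n = 3 each), with adjusted p = 3.99e-05, 7.2e-05 and 8.74e-05. The Esp genes together held 4.31% ± 0.28 of the listed FPKM in ESS glands and 4.95% ± 0.76 in NOD glands (SD, n = 3 each), a difference inside the spread between libraries (exact permutation test, 2-sided p = 0.3). The list thus held steep falls in single peptides without a separation in their sum.

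Mup5, a major urinary protein of the pheromone-binding lipocalin family (chromosome 4 at 61831319 to 61835233), had 34.4, 11.6 and 0.912 FPKM in ESS glands and 239, 220.2 and 235 FPKM in NOD glands. It was lower in all ESS libraries and nearly 0 in library 3 (log2 change -4.61 ± 0.73, adjusted p = 0.00117), with 35.5, 41.5 and 52.9 FPKM in NOD glands at 12 weeks. The 2 members that rose were Mup6, at 11.9 ± 1.49 FPKM in ESS glands and 6.92 ± 0.298 FPKM in NOD glands (SD, n = 3 each, adjusted p = 0.000462), and Lcn2, which encodes the iron-siderophore-binding lipocalin of inflamed epithelia, at 5.11 ± 1.13 FPKM in ESS glands and 2.85 ± 0.561 FPKM in NOD glands (adjusted p = 0.00947). Leaving out single libraries left 7 to 10 falls, and ESS library 3 alone gave 7 falls and 1 rise.

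Of 15 tested genes of the secretory machinery of lacrimal acini 5 rose and 1 fell, 40% of them against 15.4% of all genes (median 0.25, or 0.17 relative to that of all genes). Of 12 tested acinar and duct identity genes 1 rose and none fell, 8.33% (median 0.11, or 0.028 relative). Pigr, the receptor that carries dimeric IgA across the epithelium into tears, had 256, 238 and 197 FPKM in ESS glands and 103, 85 and 82 FPKM in NOD glands. All ESS values were above all NOD values (log2 change 1.34 ± 0.15, adjusted p = 9.31e-05), and NOD glands at 12 weeks had 221, 207 and 191 FPKM and control glands 212, 273 and 178 FPKM. Kcnn4, a calcium-activated potassium channel that takes part in fluid secretion, had 16.1, 11.8 and 8.31 FPKM in ESS glands and 2.5, 2.73 and 2.5 FPKM in NOD glands. The ESS libraries differed among themselves and all exceeded the NOD libraries, which lay close together (log2 change 1.83 ± 0.21, adjusted p = 9.31e-05).

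The 2 inositol trisphosphate receptor genes called, whose products release stored calcium, moved in opposite directions. Itpr3 was lower, with 5.8, 6.76 and 5.36 FPKM in ESS glands and 10.8, 11.2 and 8.2 FPKM in NOD glands (adjusted p = 0.00279), and Itpr2 was higher, with 1.12, 1.27 and 1.07 FPKM in ESS glands and 0.617, 0.868 and 0.657 FPKM in NOD glands (adjusted p = 0.024), but Itpr2 passed the filter on low values through ESS libraries alone. The store-operated calcium channel gene Orai1 averaged 8.18 ± 1.2 FPKM in ESS glands and 5.23 ± 0.711 FPKM in NOD glands (SD, n = 3 each, adjusted p = 0.0281). The tear lysozyme gene Lyz2 averaged 102 ± 31.2 FPKM in ESS glands and 40.8 ± 0.686 FPKM in NOD glands (adjusted p = 0.00742), but it is also a macrophage gene, and its reads may be divided with the near-identical Lyz1. After centring library medians, and without ESS library 1, ESS library 2 or NOD library 3, 3 of the secretion genes rose, and with ESS library 3 alone 2 did.

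Among identity genes Sox10, a transcription factor of lacrimal acinar and myoepithelial cells, had 15.4, 11.7 and 11.6 FPKM in ESS glands and 8.29, 9.24 and 7.38 FPKM in NOD glands and rose by 0.57 log2 units (adjusted p = 0.0217), a call lost without ESS library 1, NOD library 1 or NOD library 3. Pax6, a transcription factor required for the gland to form, had 18.9, 14.2 and 14.1 FPKM in ESS glands and 13.3, 20.1 and 15.1 FPKM in NOD glands, with overlapping groups (adjusted p = 0.937). Elf5, a factor of secretory epithelia, likewise overlapped, with 19.7, 18 and 14.1 FPKM in ESS glands and 15.3, 20.5 and 9.52 FPKM in NOD glands (adjusted p = 0.551). Of 9 tested myoepithelial and basal genes only Myh11, the smooth-muscle myosin heavy chain gene, was called. It averaged 6.82 ± 0.511 FPKM in ESS glands and 10.2 ± 0.968 FPKM in NOD glands (SD, n = 3 each, adjusted p = 0.00268).

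Genes that present antigens were mostly higher in ESS glands. Class I molecules show cytosolic peptides to CD8 T cells and are held together by beta-2-microglobulin, and class II molecules show engulfed peptides to CD4 T cells. Of 15 tested class I pathway genes 12 rose and none fell (median 0.75), and of 7 tested class II pathway genes 6 rose and none fell (median 1.86), beside 11.4% of all genes that rose. H2-M3, H2-Q7 and Psmb9 of the class I list and H2-DMb1 of the class II list passed the filter through ESS libraries alone. Summed class I FPKM was 591, 408 and 456 in ESS glands and 186, 186 and 178 in NOD glands. Control glands had 563, 588 and 469. Summed class II FPKM was 542, 392 and 396 in ESS glands and 143, 151 and 138 in NOD glands. Control glands had 527, 628 and 419. H2-K1, a classical class I heavy chain gene (chromosome 17 at 33996017 to 34000333), had 78.4, 57.9 and 61.2 FPKM in ESS glands and 5.82, 7.06 and 4.09 FPKM in NOD glands. No value of one group came near the other (log2 change 3.34 ± 0.18, adjusted p = 2.08e-07), and the mean was 10.1 FPKM in NOD glands at 12 weeks and 71.6 FPKM in control glands.

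H2-D1, the other classical heavy chain gene tested, rose much less, with 160.2, 121 and 127 FPKM in ESS glands and 82.7, 86.8 and 82.9 FPKM in NOD glands (log2 change 0.68 ± 0.11, adjusted p = 0.00168). H2-T23, a non-classical class I gene, had 45.4, 36.9 and 39.6 FPKM in ESS glands and 4.7, 3.78 and 3.37 FPKM in NOD glands, with a log2 change of 3.07 ± 0.17 (adjusted p = 2.17e-07). H2-K1, H2-T23 and H2-T22 thus had low levels in NOD glands, while H2-D1 was abundant in both groups. B2m, which encodes beta-2-microglobulin and lies outside the H2 complex on chromosome 2 at 122147686 to 122153083, had 241, 148 and 173 FPKM in ESS glands and 59.5, 57.9 and 59.4 FPKM in NOD glands. It was higher in every ESS library, with a log2 change of 1.62 ± 0.22 (adjusted p = 0.000442).

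The peptide transporter genes Tap1 and Tap2, the loading factor gene Tapbp, the trimming peptidase gene Erap1 and the immunoproteasome genes Psmb8 and Psmb10 rose by smaller amounts. Tap2 averaged 4.47 ± 0.832 FPKM in ESS glands and 2.27 ± 0.614 FPKM in NOD glands, and Tapbp 14.5 ± 2.58 FPKM in ESS glands and 8.83 ± 0.98 FPKM in NOD glands (SD, n = 3 each, adjusted p = 0.00555 and 0.0034). Only 7 of the class I genes were called without ESS library 1, and leaving out other single libraries gave 8 to 13. With ESS library 3 alone 6 rose.

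In the class II list H2-Aa and H2-Ab1, which encode the alpha and beta chains of the A molecule, moved together. H2-Aa had 74.4, 57.6 and 66.7 FPKM in ESS glands and 12.2, 14.2 and 15.6 FPKM in NOD glands, and H2-Ab1 had 63, 49.5 and 63.7 FPKM in ESS glands and 14.6, 15.5 and 16.1 FPKM in NOD glands. Their log2 changes were 2.16 ± 0.19 and 1.86 ± 0.15 (adjusted p = 1.05e-05 and 6.29e-06), with no overlap. H2-Eb1, the beta chain of the E molecule, had 111, 72 and 92.2 FPKM in ESS glands and 23.9, 31.8 and 29.7 FPKM in NOD glands (log2 change 1.64 ± 0.21, adjusted p = 0.000263). H2-DMb1, part of the peptide exchange factor, had 6.75, 4.95 and 5.63 FPKM in ESS glands and 0.926, 0.986 and 0.618 FPKM in NOD glands (adjusted p = 9.21e-07). The invariant chain gene Cd74 averaged 167 ± 51.6 FPKM in ESS glands and 69.3 ± 8.3 FPKM in NOD glands, and the protease gene Ctss, which trims the invariant chain, 47.4 ± 14.7 FPKM in ESS glands and 11.1 ± 1.38 FPKM in NOD glands (SD, n = 3 each, adjusted p = 0.00446 and 0.000374). The class II count was 5 or 6 when single libraries were left out and 4 with ESS library 3 alone.

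The H2 complex is a region in which inbred strains carry different alleles. Of 84 tested genes between H2-K1 and H2-M3 on chromosome 17 (33996017 to 37274484) 25 rose and 3 fell, 33.3% of them, against 15.4% of all genes. Of the 68 that carry no H2 name 14 rose and 2 fell, 23.5%. Strain and group cannot be told apart for these genes.

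Interferon-stimulated genes had medians above that of all genes, but few passed the test. Type I and type III interferons act through a factor complex that binds the interferon-stimulated response element. Of 16 tested type I interferon response genes 3 rose and none fell (median 0.62), and of 8 tested interferon gamma response genes 2 rose (median 0.63). That was 18.8% and 25% of them, against 11.4% of all genes that rose. Promoters of B2m, Bst2 and Oas1a are shown because those called genes carry the element within the window, written GAAANNGAAA and searched on both strands. They are the 250 bases before the annotated start, 5′ to 3′ on the gene's strand, from RefSeq on GRCm38.p6 (chr2:122147437-122147686, plus strand for B2m, chr8:71537473-71537722, minus strand for Bst2, chr5:120907526-120907775, minus strand for Oas1a), with matches in capitals.
B2m: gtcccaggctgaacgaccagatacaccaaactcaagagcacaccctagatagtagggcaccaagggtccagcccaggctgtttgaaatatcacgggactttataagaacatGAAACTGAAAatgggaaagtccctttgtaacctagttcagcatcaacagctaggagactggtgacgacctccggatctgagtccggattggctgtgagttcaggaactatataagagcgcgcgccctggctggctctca
Bst2: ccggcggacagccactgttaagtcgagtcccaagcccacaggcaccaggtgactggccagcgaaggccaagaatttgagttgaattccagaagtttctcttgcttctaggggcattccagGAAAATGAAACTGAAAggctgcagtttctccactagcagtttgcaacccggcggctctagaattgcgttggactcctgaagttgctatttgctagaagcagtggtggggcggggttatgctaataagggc
Oas1a: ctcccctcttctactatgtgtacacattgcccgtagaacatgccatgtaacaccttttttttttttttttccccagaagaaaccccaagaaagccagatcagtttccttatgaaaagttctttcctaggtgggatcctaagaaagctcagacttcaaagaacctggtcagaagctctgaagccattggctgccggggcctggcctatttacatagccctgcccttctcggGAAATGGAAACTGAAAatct
In B2m the match starts at base -139 from the start, in Bst2 overlapping matches start at -130 and -124, and in Oas1a overlapping matches start at -20 and -14. The element was found before 7 of 14 type I interferon response genes with a promoter in the table, 7 of 10 interferon gamma response genes and 2 of 13 class I genes, against 3.46% of all 27025 genes.

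Bst2, whose product tetherin holds budding virus at the cell surface (chromosome 8 at 71534255 to 71537456), had 28.1, 20.8 and 23.1 FPKM in ESS glands and 9.02, 5.4 and 8.21 FPKM in NOD glands. The ESS libraries were all far above any NOD library (log2 change 1.56 ± 0.17, adjusted p = 5.11e-05). Oas1a, which senses double-stranded RNA, had 10.3, 3.49 and 4.87 FPKM in ESS glands and 0.776, 0.583 and 0.812 FPKM in NOD glands (adjusted p = 0.00065). Oas1a passed the filter through ESS libraries alone and was highest in library 1. Ifi27l2a had 109, 41 and 33.7 FPKM in ESS glands and 30.5, 15.8 and 10.6 FPKM in NOD glands, with ESS library 3 only just above NOD library 1 (adjusted p = 0.0198), a call lost without ESS library 1, NOD library 2 or NOD library 3.

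Most interferon list genes with the same element were not called. In the type I list only Bst2 and Oas1a of its carriers were called, and in the interferon gamma list only Gbp3. The other carriers of these lists did not pass the test or were not tested. The class I carriers, B2m and H2-T23, were called. Isg15, which encodes a ubiquitin-like modifier and has 3 overlapping matches, had 7.55, 2.44 and 5.24 FPKM in ESS glands and 4.55, 2.17 and 3.09 FPKM in NOD glands, with overlapping groups (adjusted p = 0.381). The interferon gamma response genes that rose were Gbp3, a guanylate-binding protein gene, with 1.99, 1.1 and 1.53 FPKM in ESS glands and 0.36, 0.327 and 0.607 FPKM in NOD glands, and Ifi47, an immunity-related GTPase gene, with 3.01, 1.05 and 1.59 FPKM in ESS glands and 0.867, 0 and 0.793 FPKM in NOD glands (adjusted p = 0.0146 and 0.0444); both passed the filter through ESS libraries alone. Of the Ly6 family 2 of 8 tested genes rose: Ly6e above and Ly6d, with 3.11, 1.78 and 1.7 FPKM in ESS glands and 0.864, 0 and 0.379 FPKM in NOD glands (adjusted p = 0.0118). Ly6d too passed the filter through ESS libraries alone, and 11.4% of all genes rose. Without ESS library 1, 1 gene of the type I list and none of the interferon gamma list was called. Of the interferon gamma list none was called without ESS library 3 or NOD library 2 either, and 1 without ESS library 2 or NOD library 3. Oas1a, Gbp3 and Ifi47 were not tested without ESS library 1, 2 or 3. The 1 interferon gamma gene called without ESS library 2 was thus another member. Ifi47 was also not called with other pseudocounts or scalings, the 6 libraries alone, a robust prior or summed transcripts. Ly6d was not called, or not tested, without ESS library 1, 2 or 3 or NOD library 2.

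Many markers of macrophages and all tested general markers of leukocytes rose in ESS glands, whereas 3 of 4 tested plasma cell markers fell. Of 13 tested macrophage and monocyte markers 8 rose and none fell (median 1.04), beside 11.4% of all genes that rose. Their summed level was 276, 173 and 197 FPKM in ESS glands and 82.8, 86.1 and 76.8 FPKM in NOD glands. All 7 tested leukocyte markers rose (median 0.97), with sums of 51.3, 28.9 and 41.1 FPKM in ESS glands and 17.7, 15.7 and 15.3 FPKM in NOD glands. In both lists ESS library 1 was highest, and every ESS sum exceeded every NOD sum.

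The complement subunit genes C1qa, C1qb and C1qc, which are made mainly by tissue macrophages, all rose. C1qb had 68.2, 37.6 and 48.3 FPKM in ESS glands and 14.2, 14.8 and 15.8 FPKM in NOD glands (log2 change 1.68 ± 0.28, adjusted p = 0.00168). C1qc had 32.2, 19.4 and 21.9 FPKM in ESS glands and 7.79, 7.43 and 6.13 FPKM in NOD glands (adjusted p = 0.000348). Tyrobp, a signalling adaptor of myeloid cells, had 32.1, 23.7 and 25.2 FPKM in ESS glands and 6.81, 11.5 and 9.21 FPKM in NOD glands (log2 change 1.47 ± 0.18, adjusted p = 0.000152), and the Fc receptor gene Fcgr3 had 6.75, 5.91 and 6.8 FPKM in ESS glands and 2.34, 1.79 and 1.4 FPKM in NOD glands (adjusted p = 0.000642). ESS and NOD values did not overlap in any of these genes. Not all macrophage markers passed the test. Csf1r, the receptor for macrophage colony-stimulating factor, had 5.25, 4.08 and 4.69 FPKM in ESS glands and 4.02, 4.2 and 3.47 FPKM in NOD glands, Mrc1, the mannose receptor, 1.9, 1.55 and 2.16 FPKM in ESS glands and 2.08, 2.04 and 1.73 FPKM in NOD glands, and Cd14, a receptor for bacterial lipopolysaccharide, 4.49, 4.62 and 5.99 FPKM in ESS glands and 5.92, 5.04 and 6.17 FPKM in NOD glands. The adjusted p was 0.553 for Csf1r, 0.891 for Mrc1 and 0.478 for Cd14.

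Cd52, a surface glycoprotein of leukocytes, had 13.1, 5.68 and 10.3 FPKM in ESS glands and 4.68, 2.31 and 2.47 FPKM in NOD glands (adjusted p = 0.00888). Laptm5, a lysosomal protein of blood cells, had 7.91, 5.29 and 6.18 FPKM in ESS glands and 3.01, 2.23 and 2.44 FPKM in NOD glands (adjusted p = 0.004). ESS library 2 was the lowest of the ESS libraries for both genes. Ptprc, which encodes the pan-leukocyte marker CD45, stayed under the filter, with 0.914, 0.414 and 0.751 FPKM in ESS glands and 0.196, 0.228 and 0.258 FPKM in NOD glands. Markers of T and B cells were nearly absent: 5 of 17 T cell markers were listed, with a summed level of 5.42 to 7.89 FPKM in ESS glands and 2.14 to 3.84 FPKM in NOD glands, and 2 of 10 B cell markers were listed, with sums of 0.98 to 1.24 FPKM in ESS glands and 0.45 to 0.88 FPKM in NOD glands. Ccl5, a chemokine of T and natural killer cells, had 4.93, 3.92 and 4.94 FPKM in ESS glands and 1.04, 2.41 and 1.48 FPKM in NOD glands (adjusted p = 0.0135), the only one of 4 tested lymphoid chemokine genes to be called, and the call was lost without ESS library 1 or NOD library 1. Leaving out ESS library 1 left 4 leukocyte markers called, and with ESS library 3 alone 1 leukocyte and 7 macrophage markers were.

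Of 4 tested plasma cell markers 3 fell, beside 3.99% of all genes that fell. Jchain, which joins IgA and IgM into polymers, had 12.9, 16.3 and 13.7 FPKM in ESS glands and 35, 36.6 and 23.9 FPKM in NOD glands (log2 change -1.09 ± 0.17, adjusted p = 0.00101). It was lower in every ESS library, and averaged 58.6 FPKM in NOD glands at 12 weeks and 2.18 FPKM in control glands. Mzb1, a chaperone of antibody assembly, had 0.601, 0.332 and 1.25 FPKM in ESS glands and 2.13, 2.01 and 1.72 FPKM in NOD glands (adjusted p = 0.0119), and Derl3, a factor of endoplasmic-reticulum-associated degradation also made by other secretory cells, 48.9, 48.6 and 37.1 FPKM in ESS glands and 60.8, 63.8 and 58.5 FPKM in NOD glands (adjusted p = 0.0291), a call lost without ESS library 3 or any single NOD library. The fall of Jchain stood beside the rise of Pigr, whose product carries the polymers that Jchain joins.

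**Figure D3:**
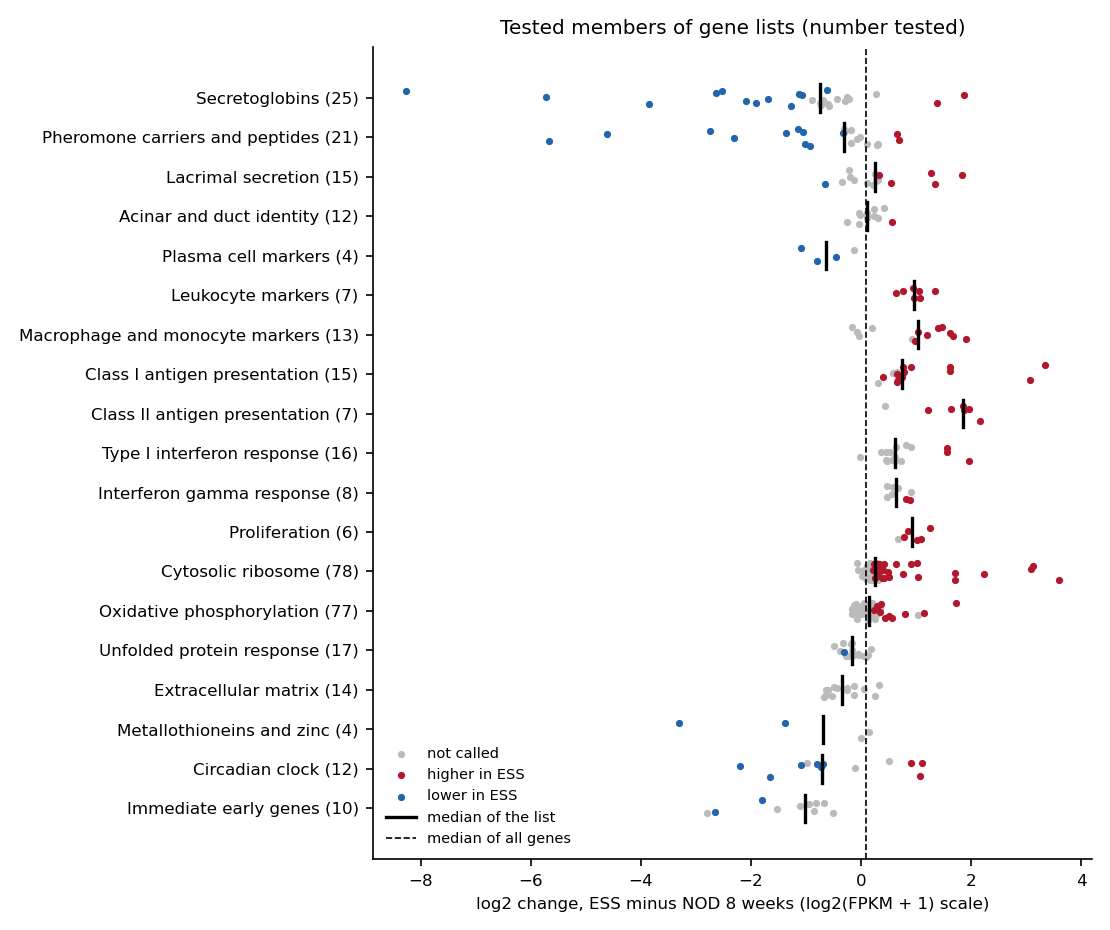
For each list, grey points give the log2(FPKM + 1) change, ESS minus NOD at 8 weeks, of its tested members, coloured points those called higher or lower, and the black bar the list's median; the dashed line is the median of all tested genes, 0.086. Class II, class I, macrophage and leukocyte lists lie to the right of that line, and secretoglobins, clock and immediate early lists have medians to its left.

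Genes of cytosolic ribosomes rose in part. Of 78 tested ribosomal protein genes 29 rose and none fell (median 0.25, or 0.17 relative to the median of all genes). That was 37.2% of them, against 11.4% of all genes that rose. All ribosomal genes together took 3.15% ± 0.32 of the listed FPKM in ESS glands and 2.21% ± 0.11 in NOD glands (SD, n = 3 each, exact permutation test, 2-sided p = 0.1, the smallest possible). Control glands had 3.11%, 3.34% and 3.36%. A few members had large changes. Rpl34 had 76.4, 62.2 and 74.6 FPKM in ESS glands and 8.04, 6.48 and 7.07 FPKM in NOD glands (log2 change 3.13 ± 0.10, adjusted p = 1.85e-09). Rpl35a had 62.3, 51 and 63.7 FPKM in ESS glands and 12.3, 11.1 and 11.8 FPKM in NOD glands (log2 change 2.23 ± 0.11, adjusted p = 1.01e-07). Rpl30 had 73, 64.1 and 74.4 FPKM in ESS glands and 20.3, 19.2 and 22.8 FPKM in NOD glands (log2 change 1.71 ± 0.096, adjusted p = 2.48e-07). In each the 3 values of a group lay close together, whereas Rpl29 had 176, 95.3 and 77.9 FPKM in ESS glands and 8.84, 6.58 and 8.95 FPKM in NOD glands, with ESS library 1 well above the other ESS libraries (adjusted p = 1.55e-06). More typical members such as Rpl8, at 742 ± 27.1 FPKM in ESS glands and 589 ± 39 FPKM in NOD glands (SD, n = 3 each), rose by 0.33 log2 units (adjusted p = 0.0118). Leaving out ESS library 1 left 17 ribosomal genes called and leaving out NOD library 1 left 18. Centring gave 18, quantile normalization 17 and rescaling without the most abundant genes 18, all higher.

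Ribosomal protein genes have many near-identical processed copies, and reads can be divided between a gene and its copy. Rps18 had 156, 134 and 145 FPKM in ESS glands and 13.9, 23.7 and 12.7 FPKM in NOD glands (log2 change 3.08, adjusted p = 6.94e-07), while its copies on chromosome 13 moved the other way. Gm10260 averaged 1.14 FPKM in ESS glands and 441 FPKM in NOD glands, and Gm11361 averaged 6.79 FPKM in ESS glands and 255 FPKM in NOD glands. In NOD glands each copy thus averaged more than Rps18 reached in any ESS or NOD library. Rps18 with its copies summed to less in ESS glands than in NOD glands, although Rps18 is among the 29 ribosomal rises counted above. Among all tested genes 16 pairs that share at least 95% identity over at least 50% of the shorter transcript were called in opposite directions, 29 genes in all. They include Eno1, the glycolytic enolase gene, with 13.8, 12.8 and 10.9 FPKM in ESS glands and 8.91, 5.58 and 5.88 FPKM in NOD glands, against its copy Eno1b, listed at 0 in all ESS glands, so that it was tested only through NOD libraries, and at 6.34, 8.62 and 6.12 FPKM in NOD glands. Ceacam1, an adhesion molecule gene, averaged 29 ± 4.08 FPKM in ESS glands and 13.9 ± 1.88 FPKM in NOD glands, and its neighbour Ceacam2 2.78 ± 1.72 FPKM in ESS glands and 25 ± 7.37 FPKM in NOD glands (SD, n = 3 each). Summed over gene and copy, Eno1 with Eno1b averaged 12.5 FPKM in ESS glands and 13.8 FPKM in NOD glands, and Pcna, a replication gene described below, with its processed copy 16.6 FPKM in ESS glands and 11.9 FPKM in NOD glands. The levels of such pairs, Rps18, Eno1b and Ceacam2 among them, are uncertain as measures of the single gene, and Rpl29 also has a copy, Gm17669. Of the 269 genes with such a copy 98 were called, 36.4%, against 15.4% of all genes.

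Of 77 tested oxidative phosphorylation genes 11 rose and none fell (median 0.14, or 0.054 relative), 14.3% against the 11.4% of all genes that rose, and 6 rose under each of the 3 other scalings. Uqcrb, a subunit of complex III, had 204, 159.5 and 201 FPKM in ESS glands and 86.5, 74.6 and 91.3 FPKM in NOD glands (log2 change 1.15 ± 0.11, adjusted p = 2.57e-05). Ndufs5, a subunit of complex I, had 38, 35.9 and 38.5 FPKM in ESS glands and 12.7, 8.09 and 11.6 FPKM in NOD glands (log2 change 1.72 ± 0.17, adjusted p = 3.51e-05). Both were separated in every library, and the other called members changed by less than 1 log2 unit. Without ESS library 1 or NOD library 1, 6 of the list were called, and without ESS library 2, 7.

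Genes of DNA replication had low levels, and those called were higher in ESS glands. Pcna, the sliding clamp of DNA polymerase, had 16.4, 17 and 13.6 FPKM in ESS glands and 9.07, 7.58 and 7.92 FPKM in NOD glands (adjusted p = 0.00399), and the helicase subunit gene Mcm2 had 4.21, 5.8 and 3.82 FPKM in ESS glands and 1.83, 1.84 and 1.58 FPKM in NOD glands (adjusted p = 0.00224). Pcna has a processed copy called in the opposite direction. Of 13 listed proliferation genes 6 were tested and 5 rose, beside 11.4% of all genes that rose. Of those 5, however, Mcm5, Mcm6 and Top2a passed the filter through ESS libraries alone. The mitotic marker Mki67 stayed under the filter, with 0.838, 0.787 and 0.66 FPKM in ESS glands and 0.59, 0.4 and 0.237 FPKM in NOD glands. Without ESS library 1, 2 or 3 (each in turn) 2 of them were called, of 3 then tested, without NOD library 3, 3 were, and with ESS library 3 alone none was.

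Several other structural and metabolic lists held few calls, beside 15.4% of all genes called in either direction. Lysosomal genes, with 33.3%, and the metabolic lists of the next paragraph, with 25% and 41.7%, held more. None of 14 tested extracellular matrix genes (median -0.34), 7 endothelial genes (median -0.25), 10 complement genes, 13 sterol genes and 6 genes of autoantigens known in Sjögren's syndrome was called. After centring 3 matrix genes were lower, after quantile normalization 4, and without NOD library 3, 3. Of 17 unfolded protein response genes (median -0.16, or -0.25 relative) only Dnajb11, a co-chaperone of the endoplasmic reticulum, was called, at 57.3 ± 1.05 FPKM in ESS glands and 71.1 ± 5.61 FPKM in NOD glands (SD, n = 3 each, adjusted p = 0.0264), a call lost on leaving out any single library but NOD library 3, and after centring 3 were lower. Of 12 lysosomal genes 4 rose, among them the protease gene Ctsb at 58.5 ± 7.41 FPKM in ESS glands and 39.1 ± 3.28 FPKM in NOD glands (adjusted p = 0.00712), and after centring 3 rose and 1 fell; without ESS library 1, NOD library 2 or NOD library 3, 2 of them rose, and with ESS library 3 alone none did.

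Of 12 triglyceride and fatty acid synthesis genes 2 rose and 1, Dgat2, fell, 25% of them against 15.4% of all genes. Me1, the cytosolic malic enzyme that supplies NADPH, had 62.2, 60.5 and 63.9 FPKM in ESS glands and 40.3, 42.1 and 36.8 FPKM in NOD glands (log2 change 0.64 ± 0.087, adjusted p = 0.000423), and the desaturase gene Scd2 had 46.3, 63.7 and 37.8 FPKM in ESS glands and 25.2, 28.9 and 19.7 FPKM in NOD glands (adjusted p = 0.0233), a call lost without ESS library 1 or 2 or NOD library 1 or 3. Of 12 serine, one-carbon and cysteine genes 2 rose and 3 fell, 41.7% of them against 15.4% of all genes. Mthfd2, the mitochondrial folate enzyme, had 18.5, 22.2 and 18.3 FPKM in ESS glands and 31.5, 39 and 25.3 FPKM in NOD glands (adjusted p = 0.00784). Its cytosolic relative Mthfd1 had 11.9, 12.9 and 10.9 FPKM in ESS glands and 9.15, 8.98 and 7.83 FPKM in NOD glands (adjusted p = 0.013), so these relatives moved in opposite directions, as did the cysteine pathway genes Cbs and Cth. Cbs averaged 9.46 ± 1.89 FPKM in ESS glands and 4.08 ± 1.15 FPKM in NOD glands, and Cth 3.83 ± 0.842 FPKM in ESS glands and 6.72 ± 2.22 FPKM in NOD glands (SD, n = 3 each, adjusted p = 0.0129 and 0.0351). Without ESS library 2 none rose, with Mthfd1 and Cbs both lost, and without NOD library 3 only Mthfd1 did. Without ESS library 1, ESS library 3 or NOD library 2, 1 of the 3 falls was called.

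Clock genes differed strongly and in both directions. In the clock, BMAL1 (gene Arntl) with CLOCK or NPAS2 drives the Per, Cry, Nr1d and Dbp genes through E-boxes, PER and CRY proteins block that drive, and REV-ERB proteins (Nr1d1, Nr1d2) repress Arntl, so the activator and the repressor arms peak at opposite phases of the day. Of 12 tested clock genes 3 rose and 6 fell (median -0.71), 75% of them against 15.4% of all genes. Promoters of Cry1 and Per3 are shown because these called genes hold an E-box, CACGTG, or a D-box, TTATGNAA, in the 250 bases before the start, on either strand. They are given as above (chr10:85185055-85185304, minus strand for Cry1, chr4:151044666-151044915, minus strand for Per3), with the E-box of Cry1 and the D-boxes of Per3 in capitals.
Cry1: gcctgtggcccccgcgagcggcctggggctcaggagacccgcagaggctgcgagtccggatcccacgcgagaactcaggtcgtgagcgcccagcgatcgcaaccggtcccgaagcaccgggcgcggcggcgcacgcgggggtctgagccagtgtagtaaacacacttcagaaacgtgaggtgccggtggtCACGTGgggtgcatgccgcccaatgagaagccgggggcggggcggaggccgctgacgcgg
Per3: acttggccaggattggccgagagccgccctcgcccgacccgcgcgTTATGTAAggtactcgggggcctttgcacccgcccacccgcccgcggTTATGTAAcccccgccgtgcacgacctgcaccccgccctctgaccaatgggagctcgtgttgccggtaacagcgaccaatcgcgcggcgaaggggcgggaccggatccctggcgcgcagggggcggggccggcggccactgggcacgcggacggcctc
The E-box of Cry1 starts at base -60 and the D-boxes of Per3 at -205 and -158. The E-box letters were found before 4 of 12 clock genes, Ciart, Cry1, Per1 and Tef, against 6.86% of all genes. The D-box letters were found before 2 of 12, Per1 and Per3, against 3.63%. Of these carriers, Per1 and Tef did not pass the test and Ciart was not tested.

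Of the activators, Arntl had 7.59, 7.16 and 8.2 FPKM in ESS glands and 3.05, 3.43 and 2.84 FPKM in NOD glands (log2 change 1.08 ± 0.17, adjusted p = 0.001). Npas2 had 2.23, 2.3 and 1.74 FPKM in ESS glands and 0.577, 0.476 and 0.251 FPKM in NOD glands (log2 change 1.11 ± 0.14, adjusted p = 0.000242), but passed the filter through ESS libraries alone. ESS values of both lay above all NOD values. Cry1, of the repressor arm, rose with them, with 5.86, 6.43 and 7.62 FPKM in ESS glands and 3.26, 3.51 and 2.48 FPKM in NOD glands (log2 change 0.91 ± 0.15, adjusted p = 0.00157).

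The genes that fell were the REV-ERB genes, Dbp, Per2, Per3 and Cry2. Nr1d1 had 6.99, 3.61 and 3.91 FPKM in ESS glands and 29.9, 27.5 and 18.9 FPKM in NOD glands (log2 change -2.20 ± 0.38, adjusted p = 0.00213). Dbp, a D-box-binding activator, had 2.34, 1.64 and 1.38 FPKM in ESS glands and 9.02, 7.37 and 6.86 FPKM in NOD glands (log2 change -1.66 ± 0.33, adjusted p = 0.00492). Every ESS value of both was far below the lowest NOD value. Per3 had 0.897, 0.729 and 0.799 FPKM in ESS glands and 2.17, 2.32 and 1.59 FPKM in NOD glands (adjusted p = 0.0184). Per2 had 0.782, 0.629 and 0.745 FPKM in ESS glands and 2.06, 1.88 and 2.05 FPKM in NOD glands (adjusted p = 0.0112), both tested only through their NOD levels. Nr1d2 averaged 4.76 ± 0.687 FPKM in ESS glands and 11.4 ± 2.66 FPKM in NOD glands, and Cry2 4.89 ± 0.792 FPKM in ESS glands and 8.57 ± 1.7 FPKM in NOD glands (SD, n = 3 each, adjusted p = 0.00494 and 0.00756).

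Arntl averaged 5.63 FPKM in NOD glands at 12 weeks and 4.83 FPKM in control glands, and Dbp 3.61 FPKM in NOD glands at 12 weeks and 6.87 FPKM in control glands. Single libraries left out gave 2 or 3 rises and 4 to 7 falls, and ESS library 3 alone 2 rises and 1 fall. The hour of collection is unknown here and cannot be told apart from the group. The glucocorticoid list, whose hormone follows the day, held 1 call among 7 tested genes, 14.3% of them against 15.4% of all genes. That call was Tsc22d3, a glucocorticoid-induced leucine zipper gene, with 5.8, 4.94 and 5.01 FPKM in ESS glands and 7.82, 6.57 and 6.4 FPKM in NOD glands (adjusted p = 0.0473). It was lost on leaving out any single library but NOD library 3.

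**Figure D4:**
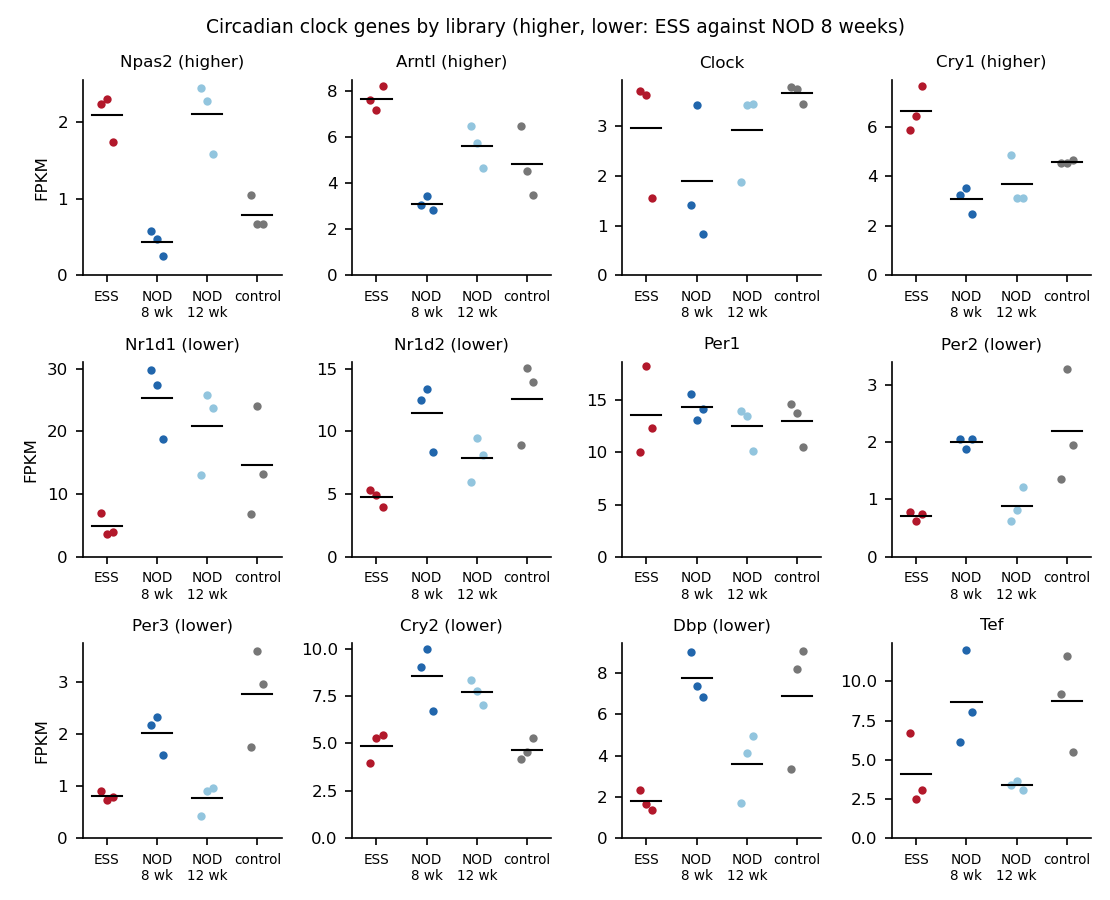
FPKM in each library, each gene on its own linear axis that starts at 0, of the 12 tested clock genes, with ESS libraries left of NOD libraries at 8 weeks, followed by NOD at 12 weeks and control; bars mark group means. Arntl, Npas2 and Cry1 are higher in all ESS libraries than in all NOD libraries at 8 weeks, and Nr1d1, Nr1d2, Dbp, Per2, Per3 and Cry2 are lower.

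Immediate early genes, which cells switch on within minutes of a stimulus, had a median of -1.02. Of 10 tested genes 2 were lower, beside 3.99% of all genes that fell. Egr1, a zinc-finger factor gene, had 1.39, 2.05 and 1.81 FPKM in ESS glands and 17.7, 7.08 and 32.2 FPKM in NOD glands (adjusted p = 0.0416). Fosb, an AP-1 subunit gene, had 0.209, 0.181 and 0.47 FPKM in ESS glands and 3.97, 2.25 and 4.52 FPKM in NOD glands (adjusted p = 0.0495), and passed the filter through NOD libraries alone. NOD libraries differed severalfold among themselves, and no gene was called without ESS library 1, 2 or 3 or NOD library 1 or 3, and 1 without NOD library 2. With a robust prior, or with transcript values summed, none was called either.

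ESS library 3 lay more than 1 log2 unit above both other ESS libraries in 18 tested genes and below both in 48, against 29 and 40 for library 1 and 10 and 31 for library 2. In library 3, 23 genes lay more than 2 log2 units below both other ESS libraries, counting genes whose level averaged 5 FPKM or more in those libraries, and they include many products of salivary glands. Bpifa2, the parotid secretory protein gene (chromosome 2 at 154008265 to 154016079), had 6915, 4790.3 and 12.2 FPKM in ESS glands and 0.462, 7.2 and 2.91 FPKM in NOD glands. Smr3a, a submandibular gland androgen-regulated protein gene, had 3937, 2826 and 17 FPKM in ESS glands and 0.663, 10.6 and 4.07 FPKM in NOD glands. Amy1, the salivary amylase gene, had 1613, 980.0 and 2.02 FPKM in ESS glands and 0.605, 1.36 and 0.813 FPKM in NOD glands. In all these genes library 3 was close to the highest NOD library, while libraries 1 and 2 were higher by orders of magnitude.

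Chia1, an acidic chitinase gene of salivary and gastric secretions, had 1666, 966 and 1.22 FPKM in ESS glands and 0, 0.48 and 0.315 FPKM in NOD glands, and Crisp1, a cysteine-rich secreted protein gene, had 315, 173 and 4.71 FPKM in ESS glands and 1.52, 3.03 and 2.62 FPKM in NOD glands. Chia1 passed the filter through ESS libraries alone. Bpifa2, Smr3a, Amy1, Chia1 and Crisp1 were called (adjusted p = 0.0155, 0.0163, 0.0241, 0.022 and 0.0182) with standard errors of 1.09 to 1.87 log2 units. Of the 5 tested salivary markers 3 rose, Bpifa2, Smr3a and Amy1, beside 11.4% of all genes that rose. The other 2, Egf and Mucl2, did not pass the test. With ESS library 3 alone Bpifa2, Smr3a and Crisp1 had adjusted p of 0.47, 0.529 and 0.389, and Amy1 and Chia1 were not tested there. Leaving out ESS library 1, ESS library 2 or NOD library 1 also ended the calls of Bpifa2, Smr3a, Amy1 and Crisp1, and leaving out any NOD library ended that of Chia1. The part of salivary tissue in ESS libraries 1 and 2 was not tested beyond these levels.

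In a principal component analysis of log2(FPKM + 1) of the tested genes over all 12 libraries, ESS libraries 1, 2 and 3 had scores of -26.9, -20.4 and -17.8 on the first component, against 22.4, 22.7 and 25.5 in NOD libraries at 8 weeks. On the second component they had -20.3, -17.9 and -2.93, against 1.27, -2.85 and 0.77 in NOD libraries, so library 3 lay near the NOD libraries there. The first component held 51.9% of the variance and the second 10.9%. Of the 93 named genes that were called, 32 were tested and not called with library 3 alone. Genes above both other ESS libraries in library 3 were led by Zc3h11a, a zinc-finger gene of RNA export, with 0.617, 1.27 and 14.2 FPKM in ESS libraries 1, 2 and 3 and 0.924, 2.61 and 1.03 FPKM in NOD glands, where it varied too.

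**Figure D5:**
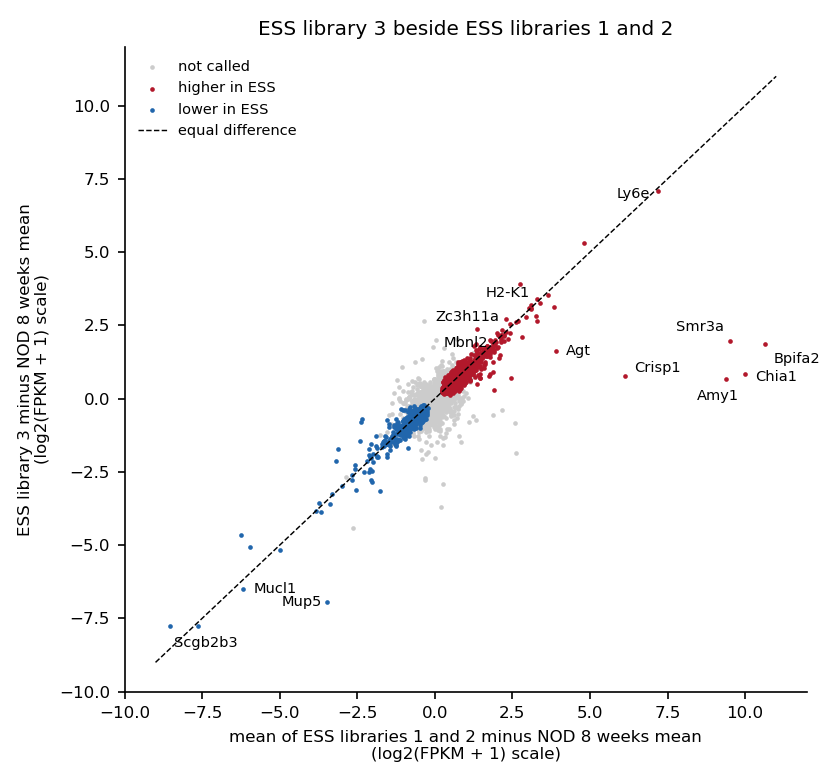
Each point is a tested gene, with the log2(FPKM + 1) difference of ESS libraries 1 and 2 (mean) from the NOD mean at 8 weeks across and that of ESS library 3 upward; the dashed line marks equal differences. Genes such as Ly6e and H2-K1 lie near that line, whereas Bpifa2, Smr3a, Chia1 and Amy1 lie far to the right at heights near those of the NOD libraries.

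No tested marker of other tissues near the gland passed the test, counting those of adipocytes (4), skeletal muscle (1), blood (5), keratinocytes and conjunctiva (1) and mast cells (5). Summed adipocyte markers were 7.87, 2.83 and 4.14 FPKM in ESS glands and 14.6, 11.7 and 5.01 FPKM in NOD glands, with overlap. Summed blood markers were 210.4, 175 and 120.3 FPKM in ESS glands and 193, 173 and 151 FPKM in NOD glands, also overlapping. Summed skeletal muscle markers, of which 2 of 8 were listed, were 9.79, 11.7 and 10.5 FPKM in ESS glands and 7.18, 5.29 and 5.22 FPKM in NOD glands, with no overlap.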

How the data were processed

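Total RNA of lacrimal glands was isolated with Trizol and made into stranded libraries with a KAPA kit, per the labels' protocols. The deposited values are FPKM per gene and per transcript that the authors computed against GRCm38, per the submitters' processing notes; the sources used here name no aligner and no annotation. The gene table holds protein-coding genes whose mean reaches 0.5 FPKM in at least 1 group. Whole reads could not be recovered from the FPKM values, so absolute depth is unknown and no count test was run.

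Genes reaching 1 FPKM in 3 or more of the 6 compared libraries were tested on log2(FPKM + 1) with limma 3.58.1 (R 4.3.3), in 1 model of the 4 groups over 12 libraries, with Benjamini-Hochberg adjustment over all tested genes and a threshold of 0.05. The p-values in the text are limma's unless a permutation test is named. The test was checked on simulated data. Tables, exact permutation tests, copies and figures were made with Python 3.11.15, pandas 2.3.3, scipy 1.17.1, blastn 2.17.0 and matplotlib 3.10.9. Promoters and their starts come from a RefSeq table on GRCm38.p6.

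The named genes are the 12 largest rises and the 12 largest falls among called genes whose higher group averaged 5 FPKM or more and whose groups did not overlap; the 4 members of each list with the smallest adjusted p; the 10 most abundant genes of each group; and the 10 genes each way that set ESS library 3 most apart. Predicted genes were left out of these ranks, and 1 member of the interferon lists is not reported here by name. Copies of called genes, other list members and genes beyond these were chosen after their values were seen. Members, lists and rule were chosen with earlier results of these data known. Alternatives were other pseudocounts, filters, scalings, priors, a replicate block, summed transcripts and leaving out libraries.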

Additional observations from a re-analysis of the deposited data

How the results depend on the processing

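None of the 93 named genes that were called reversed its direction under any alternative run. Of these genes 49 kept their call in all runs that tested them, while 24 lost it when a single library was left out. A pseudocount of 0.1 or 5, no filter, a filter over all 12 libraries, a robust prior, the 6 libraries alone and summed transcripts kept both counts of calls within 1.5 times of 1118 higher and 392 lower. The filter at 5 FPKM, which tests fewer genes, gave 697 higher and 231 lower. Quantile normalization gave 748 lower with a median of -0.011, centred medians 722 lower with -0.010, and rescaling without the most abundant genes 634 lower with 0.0057; the higher counts stayed within 1.5 times. Requiring a change of at least 1 log2 unit left 223 higher and 123 lower. Leaving out single libraries gave 558 to 881 higher and 212 to 420 lower, with medians of 0.035 to 0.117, and ESS library 3 alone gave 225 and 192. The labels do not say whether replicate numbers pair the libraries. Same-numbered ESS and NOD libraries had correlations of deviations of 0.026, 0.056 and 0.009, taken over all tested genes, which cannot exclude pairing. A replicate block gave 842 higher and 338 lower over 6 libraries and 1164 and 424 over 12, and under the block over 6 libraries 8 type I interferon response genes were called, against 2 in the same libraries without it. Depth limits genes near 1 FPKM most. Causes of these shifts were not tested.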

Other observations

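The groups of genes described here were chosen after their values were seen, so their counts are descriptions. Targets of the integrated stress response, which cells raise through ATF4 when amino acids run short or proteins misfold, held 9 falls and no rise among 20 tested genes in ESS glands, and 11, Atf4 itself among them, did not pass the test (median -0.41, against 0.086 for all genes), beside 3.99% of all genes that fell, and 10 fell after centring library medians. Atf5, a transcription factor gene of this response, had 11.1, 14.2 and 9.54 FPKM in ESS glands and 36, 32 and 26.4 FPKM in NOD glands at 8 weeks (log2 change -1.37 ± 0.20, adjusted p = 0.000758). Trib3, a pseudokinase gene, had 1.11, 0.848 and 0.999 FPKM in ESS glands and 3.5, 3.38 and 3.97 FPKM in NOD glands (adjusted p = 0.00132), and Nupr1, a small stress-induced nuclear protein gene, 204, 155 and 138 FPKM in ESS glands and 438, 294 and 339 FPKM in NOD glands (adjusted p = 0.00879). No ESS value of Atf5, Trib3 or Nupr1 reached a NOD value. Psph, Mthfd2 and Cth of this list are also in the serine list, and with ESS library 3 alone 1 gene of the list was called.

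Histone genes moved both ways, with 12 of 31 tested genes lower and 4 higher, beside 3.99% of all genes that fell and 11.4% that rose. Of the 12, 6 passed the filter on low values through NOD libraries alone, and 2 of the 4 through ESS libraries alone. Hist1h4i, an H4 gene, had 16.5, 14.7 and 11.8 FPKM in ESS glands and 76.1, 73.8 and 66.3 FPKM in NOD glands (adjusted p = 2.48e-07), while its near-identical relative Hist1h4h had 32.3, 24 and 24 FPKM in ESS glands and 14.5, 17.1 and 16.2 FPKM in NOD glands (adjusted p = 0.00157). Of the 12 that fell, 7 are H2B genes of the Hist1 cluster, at low levels in ESS glands, such as Hist1h2bk with 0.53, 0.201 and 0.684 FPKM in ESS glands and 7.6, 7.9 and 6.07 FPKM in NOD glands. With ESS library 3 alone 8 histone genes were lower and 1 higher.

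Of 13 genes encoded by mitochondrial DNA 8 were higher and none lower (median 0.32), but 3 were after centring, and none was with ESS library 3 alone. Among all genes 11.4% were higher. The complex I subunit gene mt-Nd2 had 1787, 2160.3 and 2016 FPKM in ESS glands and 1154, 1232 and 1238 FPKM in NOD glands (adjusted p = 0.00526). These genes held 3.34% ± 0.26 of the listed FPKM in ESS glands and 2.29% ± 0.33 in NOD glands (SD, n = 3 each; exact permutation test, 2-sided p = 0.1, the smallest possible).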
